A study of Homo sapiens with 8 samples.

Results

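The ROCK, LIM kinase and p190 RhoGAP pathway was examined through 10 genes, ROCK1, ROCK2, ARHGAP5, ARHGAP35, LIMK1, LIMK2, CFL1, PPP1R12A, MYLK and MYL9. The genes were chosen for their place in the pathway around RND3 (RhoE). No rule on measured levels was used, but earlier results of these data were known. Every non-control probe whose RefSeq accession named one of them was kept, which gave 20 of the 42405 probes and 10 of the 19483 named genes on the array. The study asked how the transcriptome of glioblastoma cells changes when RND3 is knocked down. U87, an established human glioblastoma line, was reverse-transfected with siRNA by lipofectamine RNAiMAX, either against RND3 (siRND3, labelled RhoE KD) or non-silencing (siControl, labelled control and, in the titles, NSC). Total RNA was taken at 24 h (3 siControl and 3 siRND3 arrays) and at 48 h (1 array of each), and was hybridised to 1-colour Agilent arrays. All groups share the cell line, the transfection reagent and transfection with some siRNA, and no untransfected cells were analysed here. The methods name a pair of siRNA oligos against RND3 but not the array that received each, and the labels do not tell whether replicates were separate transfections, so p-values measure only the spread between these arrays.

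RND3 is an atypical small GTPase that does not hydrolyse GTP and opposes RhoA signalling. It binds ROCK1 and restrains its kinase activity, and it binds the p190 RhoGAPs (ARHGAP5 and ARHGAP35), which switch RhoA off. Active RhoA engages the kinases ROCK1 and ROCK2, which phosphorylate the LIM kinases LIMK1 and LIMK2. The LIM kinases in turn inactivate cofilin (CFL1), the protein that severs actin filaments. ROCK also inhibits the myosin phosphatase targeting subunit PPP1R12A, and so favours phosphorylation of the myosin regulatory light chain (MYL9), which is also the substrate of myosin light chain kinase (MYLK). Most of this regulation acts on proteins, whereas the arrays measured RNA.

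Values are log2 spot intensities, quantile-normalised over the 8 arrays, and a difference of 1 is a doubling of intensity. A level cannot be compared between probes, so each probe is compared with itself across arrays. On each array the scanner software called 68.3% to 70.7% of probes well above background, and replicate arrays at 24 h correlated across probes at 0.988 to 0.991. The siRND3 arrays occupied row 1 of the single slide and the siControl arrays row 2, so treatment cannot be told apart from slide row, and the arrays at 48 h had a slide column of their own. Markers of mesenchymal glioblastoma were well above background on all 8 arrays for 6 of 6 genes. Of 5 astrocyte and oligodendrocyte markers, SOX10 was so on all 8, OLIG2 on 7, AQP4 and S100B on 1 and GFAP on 0. The 3 leukocyte and 3 endothelial markers matched on the array passed that call on all 8 arrays, as did 1 of 3 epithelial markers (EPCAM), while CDH1 and KRT5 passed on 0.

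The knockdown itself was clear. RND3 (probe A_23_P142849) measured 11.88, 11.91 and 11.90 on the siControl arrays at 24 h and 10.12, 10.18 and 10.42 on the siRND3 arrays. At 48 h it measured 11.48 with siControl and 9.84 with siRND3. The groups at 24 h did not overlap, siRND3 replicate 3 kept the highest level of the knockdown arrays, and the remaining level was 31.7% of control at 24 h and 31.9% at 48 h. The log2 difference at 24 h was -1.66 (SE 0.10, n = 3 and 3, limma adjusted p = 0.000345).

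**Figure D1:**
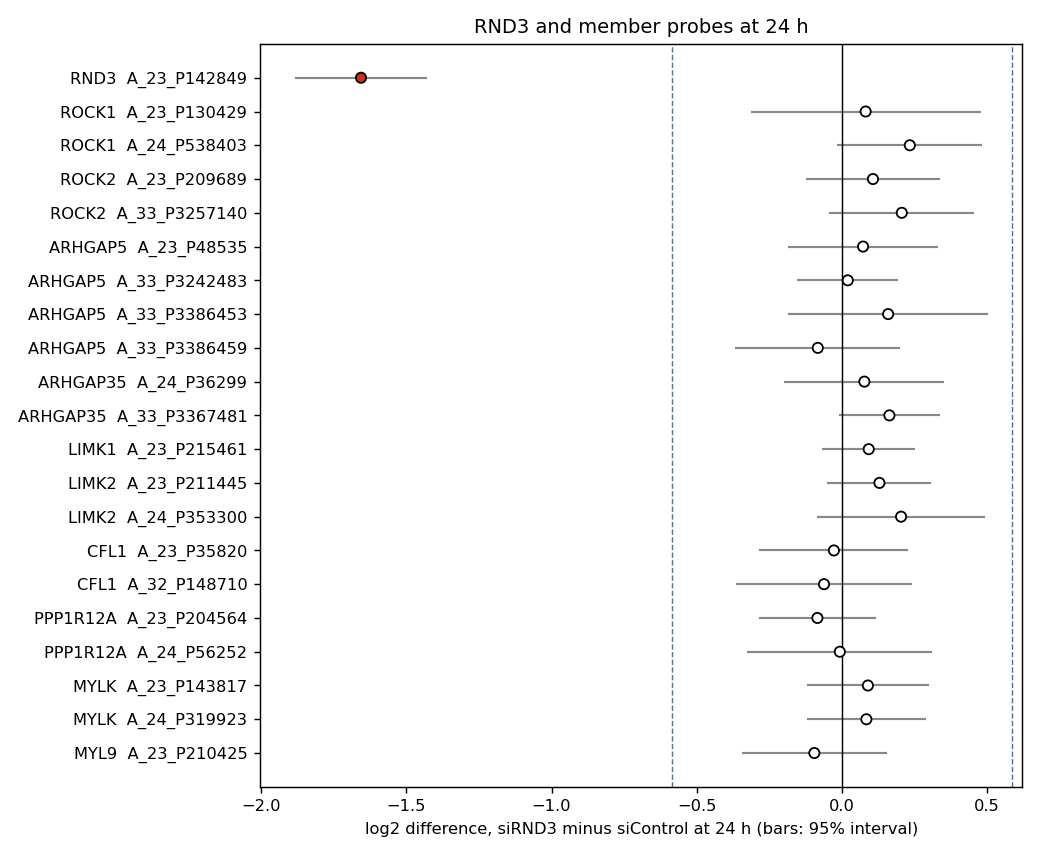
RND3 and the 20 member probes at 24 h. The x axis is the log2 difference, siRND3 minus siControl (3 arrays each), the bars are 95% intervals from limma, the filled point passed the test and the dashed lines mark 1.5-fold either way. RND3 lies at -1.66, whereas every member probe lies between -0.09 and 0.23 with its whole interval inside the dashed lines.

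At 24 h no member gene passed the test for a change after the loss of RND3. None of the 20 member probes passed the test (limma adjusted p from 0.199 to 0.982), while 11.6% of all 28759 probes tested did so. At an unadjusted p under 0.05 the count was also 0 of 20, beside 28% of all probes, and significance analysis of microarrays (SAM) called 0 as well. The differences ran from -0.09 to 0.23, and the 95% intervals of all 20 lay within -0.37 and 0.50, that is, between 0.775-fold and 1.42-fold of control. A change of 1.5-fold in either direction lay outside every interval. The median size of a difference was 0.09 for members and 0.16 for all probes, with a median SE of 0.10 and 0.11. All 20 probes were called well above background on all 8 arrays. The leukocyte and endothelial markers matched on the array passed this call too.

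Differences were above 0 for 14 of 20 member probes (70%), with a median of 0.08, beside 58.7% of all probes and a median of 0.05. The member count depended on 1 array. Without siRND3 replicate 3, 10 of 20 differences were above 0 and the median was 0.00237, beside 0.06 for all probes. Leaving out any other array at 24 h gave 13 to 16 of 20. The siRND3 and siControl arrays did not overlap for 4 of 20 member probes (20%), and in each of the 4 siRND3 was higher. Over all probes 34.4% did not overlap and 20.3% had siRND3 higher.

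The kinases ROCK1 and ROCK2, the direct effectors of RhoA, came first in the pathway. ROCK1 probe A_24_P538403 measured 9.53, 9.61 and 9.65 in siControl and 9.75, 9.72 and 10.03 in siRND3 cells at 24 h. The siRND3 arrays were all higher, replicate 3 most of all, and the difference of 0.23 (SE 0.10, 95% interval -0.02 to 0.48) was the largest of any member but did not pass (limma adjusted p = 0.202). The other ROCK1 probe, A_23_P130429, ranged from 7.71 to 8.07 in siControl and from 7.64 to 8.20 in siRND3 cells, with a difference of 0.08. The ROCK2 probes differed by 0.11 and 0.21, with overlapping groups, and their intervals together ran from -0.12 to 0.46.

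The p190 RhoGAPs, which RND3 binds, differed by -0.08 to 0.16 at 24 h. ARHGAP35 (p190-A) had the lowest adjusted p of all members, on probe A_33_P3367481, which measured 10.43, 10.37 and 10.38 in siControl and 10.51, 10.63 and 10.52 in siRND3 cells. These groups did not overlap, yet the difference of 0.16 (SE 0.07) did not pass (limma adjusted p = 0.199). The second ARHGAP35 probe differed by 0.08 and its groups overlapped. ARHGAP5 (p190-B) had 4 probes, all with the same accession, which differed by 0.07, 0.02, 0.16 and -0.08 and overlapped between groups.

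Downstream, LIM kinase probes differed by 0.09 to 0.20 and cofilin probes by -0.06 to -0.03, and none passed. LIMK1 measured 12.91, 12.95 and 12.90 in siControl and 13.00, 13.05 and 12.99 in siRND3 cells, without overlap. This difference of 0.09 had a 95% interval of -0.07 to 0.25 (limma adjusted p = 0.422). LIMK2 differed by 0.13 without overlap on probe A_23_P211445 and by 0.20 with overlap on A_24_P353300. The CFL1 probes followed each other over the 8 arrays (r = 0.946, as a description) and their groups overlapped.

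On the myosin side the differences were equally small. PPP1R12A differed by -0.08 and -0.01, MYLK by 0.09 and 0.08, and MYL9 by -0.09 (95% interval -0.35 to 0.16). PPP1R12A probe A_24_P56252 measured 9.68, 9.68 and 9.66 in siControl cells and 9.80, 9.37 and 9.83 in siRND3 cells. Its siControl arrays were closely grouped, whereas siRND3 replicate 2 fell below and the other siRND3 arrays above them.

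**Figure D2:**
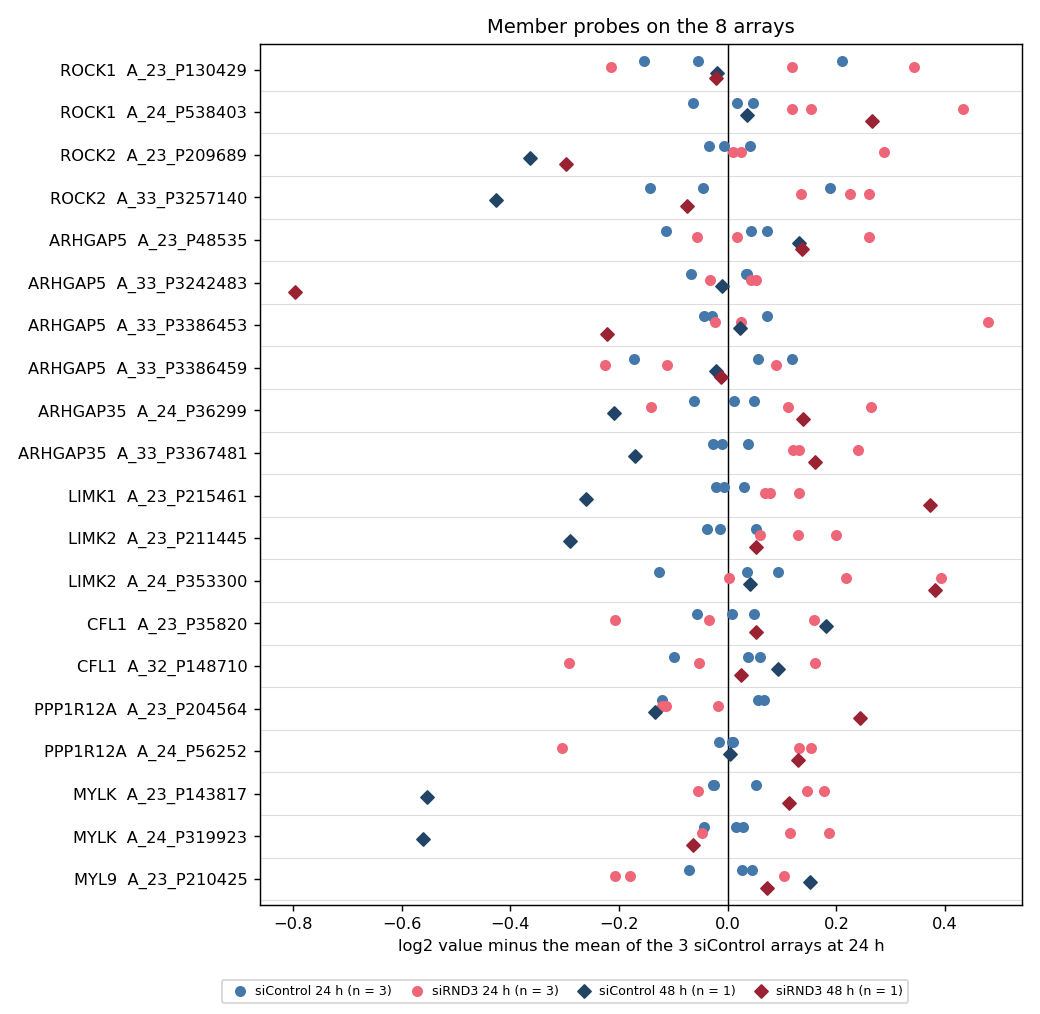
Member probes on each array. The x axis is the log2 value minus the mean of the 3 siControl arrays at 24 h, circles are arrays at 24 h and diamonds the single arrays at 48 h. Circles of both colours mix around 0 on most rows, and the points furthest out are the 48 h diamonds of ARHGAP5 A_33_P3242483 and of both MYLK probes.

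At 48 h larger differences appeared for members and over all probes, between 1 siControl and 1 siRND3 array. They were tested in a limma fit of 4 groups, in which the single arrays were assumed to vary like those at 24 h, and this comparison was chosen after seeing the data. In that fit 3 of 20 member probes passed, beside 19.0% of all probes: LIMK1 and 1 MYLK probe were higher in siRND3 cells and 1 ARHGAP5 probe was lower. The remaining 17 differences lay between -0.24 and 0.50. The median size of a difference at 48 h was 0.29 for members and 0.28 for all probes, against 0.09 and 0.16 at 24 h. The median SE at 48 h was 0.18 for members and 0.18 for all probes, against 0.10 and 0.11 at 24 h.

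LIMK1, the kinase that phosphorylates cofilin, measured 12.66 with siControl and 13.29 with siRND3 at 48 h. The siControl value was below and the siRND3 value above all 6 arrays at 24 h, so that the arrays parted in both directions. The difference was 0.63 (SE 0.12), or 1.55-fold (limma adjusted p = 0.0123). It passed without each of the 6 arrays at 24 h in turn, with adjusted p between 0.0169 and 0.0362, but these fits leave the arrays at 48 h as they are. With the replicate number as a block it did not pass (adjusted p = 0.0527). Against the difference at 24 h it was larger by 0.54, which did not pass (adjusted p = 0.0949, and between 0.0295 and 0.217 over the alternatives fitted by probe, of which only normexp background correction passed). Fitted over gene means, in which LIMK1 keeps its 1 probe, it also passed (adjusted p = 0.0406). LIMK2 differed by 0.34 on both probes at 48 h and did not pass (adjusted p = 0.125 and 0.345).

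MYLK, the calmodulin-dependent kinase of the myosin light chain, had its lowest values on the siControl array at 48 h. Probe A_23_P143817 measured 13.00, 12.93 and 12.93 in siControl and 12.90, 13.10 and 13.13 in siRND3 cells at 24 h. At 48 h it measured 12.40 with siControl and 13.07 with siRND3. Probe A_24_P319923 measured 11.60, 11.53 and 11.59 against 11.76, 11.52 and 11.69 at 24 h, then 11.01 against 11.51. On both probes the siControl array at 48 h was below all 6 arrays at 24 h, and on A_24_P319923 so was the siRND3 array. The siRND3 array differed from the siRND3 mean at 24 h by 0.02 and -0.15.

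The MYLK differences at 48 h were 0.67 (SE 0.15, limma adjusted p = 0.0269) and 0.50 (SE 0.15, adjusted p = 0.0635), or 1.59-fold and 1.41-fold. Without siControl replicate 1, 2 or 3 the first did not pass, with adjusted p between 0.0532 and 0.0583, and over all alternatives its adjusted p lay between 0.0068 and 0.082. Taken as the mean of both probes, MYLK differed by 0.58 and passed (adjusted p = 0.0076). The excess over the difference at 24 h was 0.58 and 0.41 and did not pass (adjusted p = 0.150 and 0.268). In siControl cells, MYLK was 0.55 and 0.56 lower at 48 h than at 24 h on these probes, with adjusted p = 0.0688 and 0.0618 (between 0.0158 and 0.261 over the alternatives) and 0.0145 for the mean of both.

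**Figure D3:**
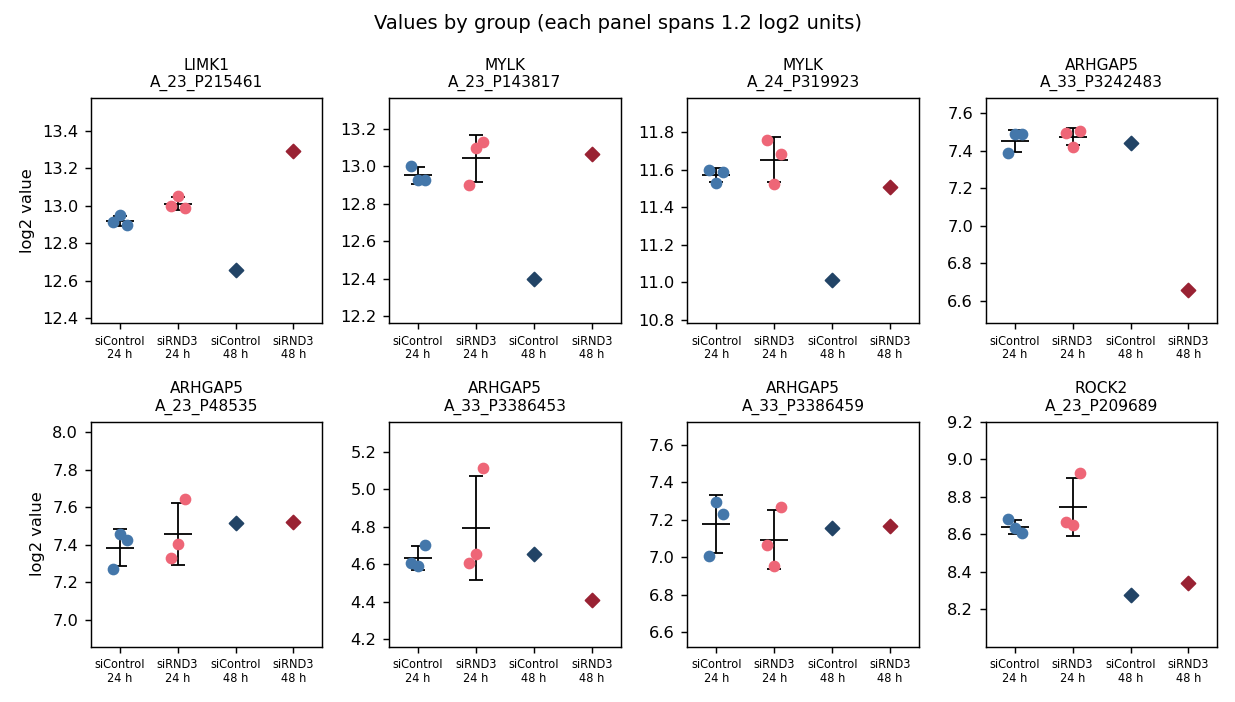
Log2 values of LIMK1, MYLK, ARHGAP5 and 1 ROCK2 probe by group. Each point is an array, the bars at 24 h are the mean and SD of 3 arrays, 48 h groups have 1 array and so no error, and all panels span the same range. LIMK1 parts in both directions at 48 h, MYLK lies low on the siControl array at 48 h, and 1 of the 4 ARHGAP5 probes lies far below its other arrays.

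ARHGAP5 gave the largest single difference, on 1 of its 4 probes. Probe A_33_P3242483 measured 7.39, 7.49 and 7.49 in siControl and 7.50, 7.42 and 7.51 in siRND3 cells at 24 h. At 48 h it measured 7.44 with siControl and 6.66 with siRND3. The siRND3 array at 48 h was alone in lying low, and the other 7 arrays spanned 7.39 to 7.51.

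The ARHGAP5 difference at 48 h on this probe was -0.79 (SE 0.13), or 58% of control (limma adjusted p = 0.00752). It differed from that at 24 h by -0.81 (SE 0.14, adjusted p = 0.0452), which made it 1 of 20 member probes to pass that test, beside 2.73% of all probes. When any 1 of the 6 arrays at 24 h was left out, the change between times did not pass (adjusted p from 0.0642 to 0.121). No other ARHGAP5 probe passed, and they measured 7.52, 4.65 and 7.16 with siControl and 7.52, 4.41 and 7.17 with siRND3 at 48 h. The mean of the 4 probes differed by -0.25 at 48 h (adjusted p = 0.300).

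**Figure D4:**
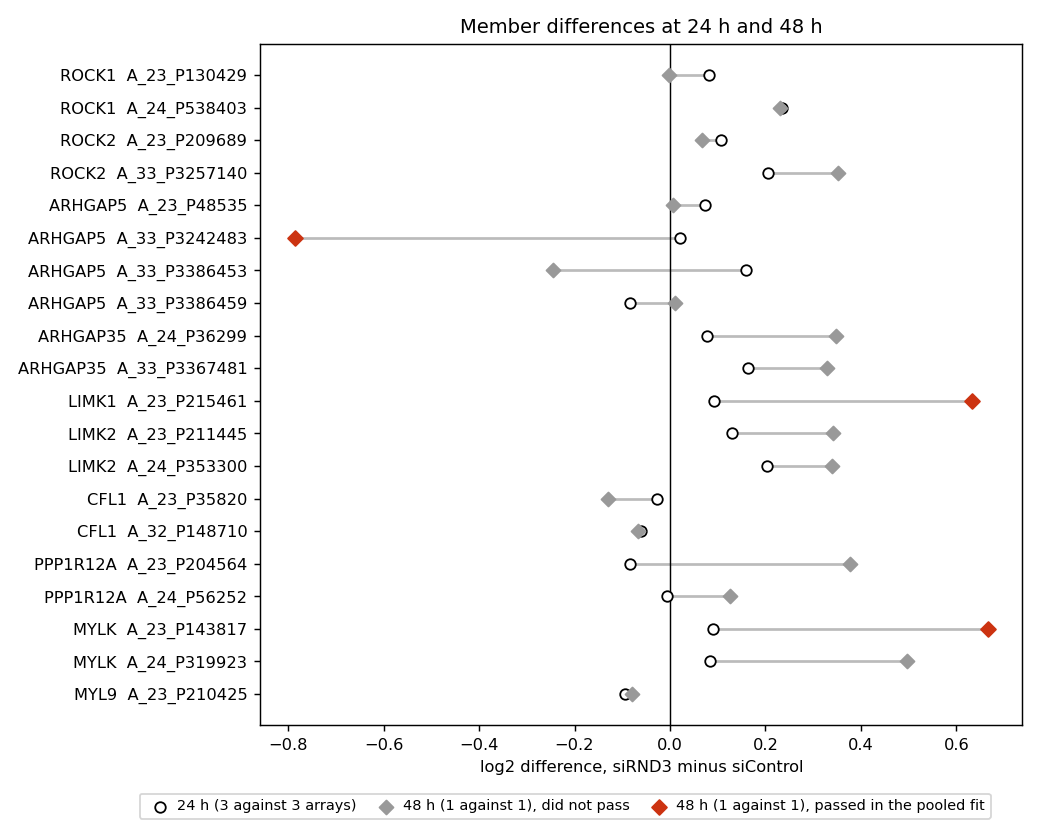
Member differences, siRND3 minus siControl, at 24 h (circles, 3 against 3 arrays) and at 48 h (diamonds, 1 against 1), on the log2 scale, with a line joining the values of a probe. LIMK1 moves from 0.09 to 0.63, the MYLK probes from 0.09 and 0.08 to 0.67 and 0.50, and ARHGAP5 A_33_P3242483 from 0.02 to -0.79.

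Change with time was tested in the same fit. In siControl cells 0 of 20 probes passed between 24 h and 48 h, beside 3.56% of all probes; 6 of 20 had an unadjusted p under 0.05, beside 21.6%. Those 6 were both ROCK2 probes, both MYLK probes, LIMK1 and LIMK2 A_23_P211445, all lower at 48 h. All rest on the single siControl array at 48 h, on which 8 of 20 member probes and 53.9% of all probes were higher than at 24 h. In siRND3 cells 1 of 20 passed, beside 9.03% of all probes, and this was the ARHGAP5 probe described above (-0.82, SE 0.10, adjusted p = 0.00786).

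ROCK2 measured lower at 48 h than the mean at 24 h under both siRNAs on both probes. Probe A_23_P209689 measured 8.68, 8.63 and 8.60 in siControl and 8.66, 8.65 and 8.93 in siRND3 cells at 24 h, then 8.27 and 8.34 at 48 h. Both arrays at 48 h were below all 6 at 24 h. The differences with time were -0.36 and -0.40 and did not pass (limma adjusted p = 0.193 and 0.122). On probe A_33_P3257140 the siControl array at 48 h (6.98) was below all 6. The siRND3 array at 48 h (7.34) was within their range of 7.27 to 7.67. It was below the 3 siRND3 arrays at 24 h (7.55 to 7.67). The differences with time on this probe were -0.43 with siControl and -0.28 with siRND3.

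The siControl array at 48 h was below all 6 arrays at 24 h for 9 of 20 member probes, which belonged to ROCK2, ARHGAP35, LIMK1, LIMK2, PPP1R12A and MYLK. Over all probes on the array the share was 23.9%. It was above all 6 for 2 of 20, of CFL1 and MYL9, beside 24% of all probes. The siRND3 array at 48 h was below all 6 for 4 of 20 and above all 6 for 2 of 20, beside 22.6% and 33.1% of all probes. Time and slide column cannot be told apart here.

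Other genes of the pathway were taken from a list of 56 regulators, targets and relatives of the members, of which 54 were tested. At 24 h 8 of them (14.8%) had changed, 4 up and 4 down, beside 16.4% of all 14805 genes tested. ARHGAP1, which acts on RhoA and CDC42, fell by 1.14 (SE 0.08, limma adjusted p = 0.000548). ARHGAP18, a RhoA-directed GAP, rose by 0.56 (SE 0.07, adjusted p = 0.00527), and MYO9B, a myosin that carries a RhoGAP domain, by 0.40 (SE 0.07, adjusted p = 0.0187). These were 3 of the 7 GAPs tested from the list, and the others did not pass.

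Among the activators of RhoA, NET1 rose by 0.57 (limma adjusted p = 0.00502) and was the only 1 of 6 exchange factors to pass. No PAK or TESK kinase (0 of 5) and no myosin chain (0 of 5) passed. SSH1, a phosphatase that reactivates cofilin, fell by 0.50 (adjusted p = 0.0345) on 1 probe and differed by -0.0032 on the other. Moesin (MSN), a membrane-to-actin linker that ROCK phosphorylates, fell by 0.45 (adjusted p = 0.0113).

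The partners of PPP1R12A in myosin phosphatase gave the remaining calls. PPP1CB, the catalytic subunit, rose by 0.36 (limma adjusted p = 0.0302), with 0.26 on its other probe (adjusted p = 0.100). PPP1R12B, the muscle-type targeting subunit, fell by 0.37 on probe A_23_P201790 (adjusted p = 0.0246), a probe called above background on each of the 8 arrays. Its probe of smallest p, A_33_P3257609, was well above background on 3 siControl and 1 siRND3 array at 24 h and so entered the test only through the siControl group. There the difference was -1.16, against -0.24 with normexp and -0.40 with the authors' values, and it is given only as a description. The other 2 probes differed by 0.0045 and -0.16 and did not pass.

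ARHGAP1, ARHGAP18 and NET1 passed in each of the 17 alternatives tried. Leaving out siControl replicate 1, 2 or 3 reduced the 8 genes to 4, 4 and 3. Over the 6 fits that left out 1 array at 24 h, MSN passed in 4 and MYO9B in 2. In the same fits SSH1 passed in 1 and PPP1CB in 1. PPP1R12B A_33_P3257609 is left out here, since it entered the test only through the siControl group.

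**Figure D5:**
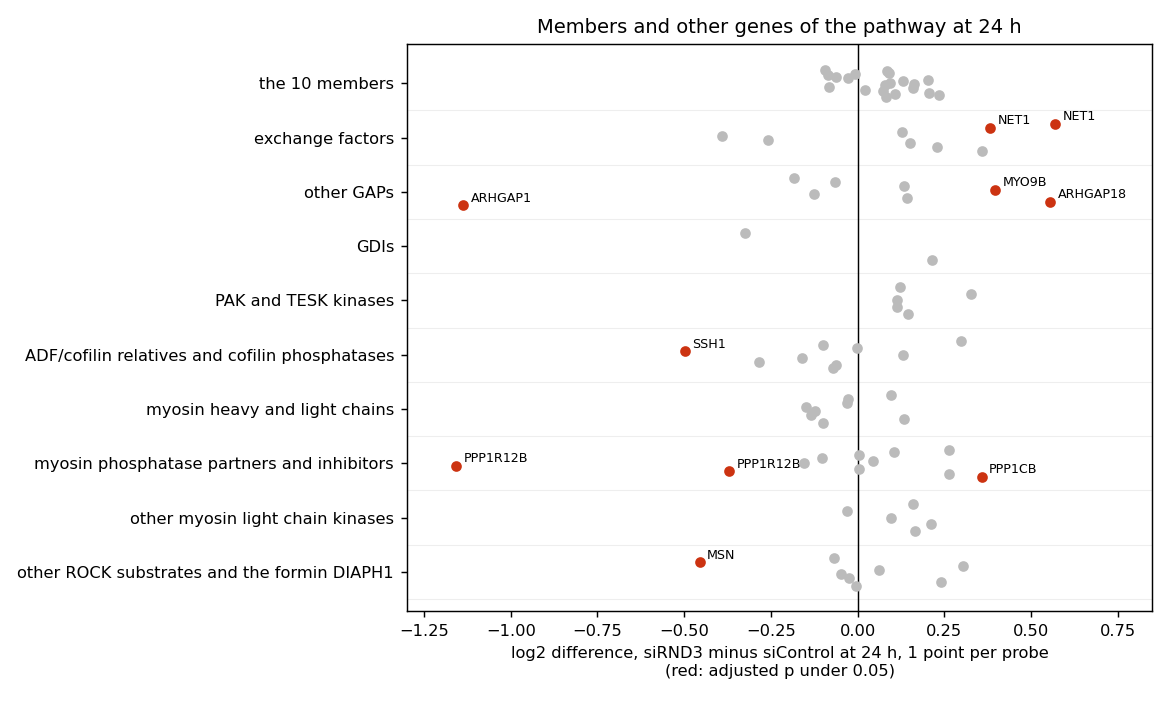
Log2 differences at 24 h, siRND3 minus siControl, for the 20 member probes in the top row and for tested probes of other pathway genes by role, 1 point per probe, with 1 role not shown. Red points passed the limma test and carry their gene symbol. Members stay between -0.09 and 0.23, and the red points run from ARHGAP1 at -1.14 to NET1 at 0.57, beside 1 PPP1R12B probe at -1.16 that was above background on 1 of 3 siRND3 arrays.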

How the data were processed

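Total RNA of 8 U87 samples was measured on 1-colour (Cy3) Agilent arrays. The authors ran Feature Extraction 10.7.3.1, and the deposited scanner files hold spot intensity, background-subtracted within each array. The authors also deposited log2 values, ranked within arrays like the spot medians, and their methods state quantile normalisation.

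Processed intensity was put on the log2 scale and quantile-normalised over the 8 arrays without control spots. Outlier spots (0.364% to 0.53%) were dropped and spots of a probe averaged. Tests covered the 28759 probes called well above background on the 3 arrays of either group at 24 h, with limma 3.58.1 in R 4.3.3, Benjamini-Hochberg adjustment over all of them and a threshold of 0.05. A gene counted as changed when 1 or more of its probes passed and none in the other direction. The number of arrays limits the precision.

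Probes were named by accession through RefSeq's GRCh38.p14 gene table. The arrays were annotated on hg19, so coordinates are not given. Members and lists were chosen with earlier results of these data known. All members and RND3 are named, and of the other pathway genes those changed at 24 h, by the probe of smallest p. Single values for PPP1R12B, PPP1CB and SSH1 on further probes were chosen after they were seen. Alternatives were scaling to the 75th percentile, normexp with an offset of 50 on spot medians, the authors' log2 values, normalisation over 6 arrays, other filters on dim probes, SAM over all 20 assignments, the replicate block, an additive fit of all 8 arrays, array weights, gene means and leaving out each array.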

Additional observations from a re-analysis of the deposited data

Results flagged for a closer look

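By the limma contrast of the difference at 48 h with that at 24 h, 1 ARHGAP5 probe passed. The call was lost when any 1 of the 6 arrays at 24 h was left out. On this probe, A_33_P3242483, the effect of the knockdown differed between the times in the main fit. It went from 0.02 to -0.79 on the log2 scale, a change of -0.81 (adjusted p = 0.0452), and rested on the single siRND3 array at 48 h, which measured 6.66.

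The same contrast passed for ARHGAP18, whose difference went from 0.56 to 1.38, a change of 0.83 (adjusted p = 0.04). It did not pass when any 1 of the 6 arrays at 24 h was left out (adjusted p from 0.0574 to 0.106). MYO9B went from 0.40 to 1.56, a change of 1.16 (adjusted p = 0.0245), and passed in 3 of the 6 fits that left out an array. MYO9B measured 9.49 on the siControl array at 48 h, below its siControl arrays at 24 h (10.41, 10.47 and 10.45), and 11.04 on the siRND3 array. For both genes the difference at 48 h is 1 array against 1. Over all 13 alternatives, those fits included, the call held in 3 for ARHGAP18 and in 9 for MYO9B. Of all probes 2.73% passed this contrast in the main fit.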

How the results depend on the processing

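At 24 h 0 members passed under any of the 17 alternatives (lowest adjusted p 0.0949, additive fit), and the median of all probes stayed between 0.02 and 0.08. Normexp moved ARHGAP5 A_33_P3386453 at 24 h from 0.16 to 0.055 and PPP1R12A A_23_P204564 at 48 h from 0.38 to 0.12. The 3 members passing at 48 h became 1 with the replicate block. The change between times (1 passing) became 0 with the authors' log2 values and with the replicate block, and 0 to 0 when an array was left out. In siControl cells over time (0 passing) normexp, the authors' values and array weights gave 2, and gene means 1, all MYLK. In siRND3 cells (1 passing) normexp gave 2 and the block and gene means 0. The pathway list (8 genes) gave 16 in the additive fit, 4 with the block and 3 to 8 when an array was left out.

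Replicate numbers at 24 h equalled slide columns. Deviations of same-numbered arrays correlated at 0.002, -0.0118 and 0.129, and those of differently numbered arrays at -0.134 to 0.112. With 3 arrays per group these values cannot exclude a pairing. The main fits took none, and the replicate block was run as an alternative. Beyond the counts given, LIMK1 at 48 h had adjusted p = 0.0527 and ARHGAP5 A_33_P3242483 0.0389 with the replicate block. Calls of ARHGAP5 between times also ended with normexp (-0.54, adjusted p = 0.0609) and the authors' values (-0.65, adjusted p = 0.0669).

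Signs of small member differences at 24 h turned in places. Leaving out 1 array, ROCK1 A_23_P130429 ran from -0.049 to 0.23, ARHGAP5 A_23_P48535 from -0.020 to 0.14, A_33_P3242483 from -0.014 to 0.047 and A_33_P3386453 from -6.35e-05 to 0.25. ARHGAP35 A_24_P36299 ran from -0.015 to 0.19, CFL1 A_23_P35820 from -0.12 to 0.063 and A_32_P148710 from -0.17 to 0.054, and PPP1R12A A_24_P56252 from -0.087 to 0.14. The additive fit gave ARHGAP5 A_33_P3242483 as -0.18 and the PPP1R12A probes as 0.031 and 0.026, percentile scaling gave CFL1 A_23_P35820 as 0.021, and PPP1R12A A_24_P56252 was 0.0041 with normexp and 0.0011 with the authors' values. The cause was not tested.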
